A study of Mus musculus with 12 samples.

Results

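The TRBJ1 cluster is the upstream group of joining segments of the mouse T cell receptor beta locus. Its members were taken as every segment named TRBJ1 that was the best J hit of a productive beta-chain clonotype, meaning a clonotype whose CDR3 was covered, in frame and free of stop codons. The rule found 6 segments, TRBJ1-1 to TRBJ1-6, of 12 J segments in use. They held 323074 of 1233404 productive beta-chain reads and 151171 of 541047 clonotypes, a clonotype being a distinct V segment, J segment and CDR3 nucleotide sequence within a library.

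The study sorted mature thymocytes of the CD4 single-positive stage (CD4SP) and of the CD8 single-positive stage (CD8SP) from wild-type mice (WT) and from Chrna9-/- mice (written KO here), which lack the alpha9 subunit of the nicotinic acetylcholine receptor. Each of the 4 groups of genotype and cell type held 3 libraries, so that 6 mice gave 12 libraries, from 1000000 sorted CD4SP or 330000 sorted CD8SP cells each. The mice were male pairs and a female pair of both genotypes. Neither the strain, the age nor the cells in which Chrna9 is lost were given in the labels, no treatment was listed, and the labels do not say which pair was female. The series' title asks about cholinergic regulation of negative selection, the removal of self-reactive thymocytes.

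A beta chain is assembled in the thymus in steps. A D segment is first joined to a J segment, and a V segment is then joined to that DJ unit, with bases lost from each end and others added between them. The locus carries a pair of D-J-C units, so TRBD1 can join either J cluster, whereas TRBD2 lies downstream of TRBJ1. The J segment supplies the last residues of CDR3, the loop that meets the peptide held by MHC, and the whole of framework 4. CD4SP cells have been selected on MHC class II and CD8SP cells on MHC class I.

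RefSeq's GRCm38.p6 annotation, which is the build mm10 named in the submitters' processing notes, places the members on chromosome 6 within 1743 bp. TRBJ1-1 starts 651 bp after TRBD1, and the end of TRBJ1-6 lies 6556 bp before TRBD2. The segments follow each other in the direction of transcription with rising coordinate. All are annotated as J segments, and Trbj1-7, the last J of the cluster in that annotation at chr6:41535642-41535687, was the best hit of no productive clonotype. The sequences below are those that untrimmed clonotypes carried most often. Bases that code for CDR3 are in capitals, because the members differ in how much of CDR3 they bring as well as in sequence. Each sequence has the length of its RefSeq entry.

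TRBJ1-1 (chr6:41533864-41533911): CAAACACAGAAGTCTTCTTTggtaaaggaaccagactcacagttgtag
TRBJ1-2 (chr6:41534001-41534048): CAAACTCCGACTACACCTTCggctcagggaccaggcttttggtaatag
TRBJ1-3 (chr6:41534323-41534372): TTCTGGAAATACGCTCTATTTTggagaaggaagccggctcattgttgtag
TRBJ1-4 (chr6:41534811-41534861): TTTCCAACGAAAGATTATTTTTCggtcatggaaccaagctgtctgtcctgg
TRBJ1-5 (chr6:41535084-41535133): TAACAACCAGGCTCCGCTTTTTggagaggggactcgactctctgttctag
TRBJ1-6 (chr6:41535554-41535606): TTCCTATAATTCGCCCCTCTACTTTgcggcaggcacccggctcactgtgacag

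TRBJ1-1 and TRBJ1-2 bring 20 nucleotides of CDR3, TRBJ1-3 and TRBJ1-5 bring 22, TRBJ1-4 brings 23 and TRBJ1-6 brings 25. Of the 5 members whose modal sequence stood in over 90% of untrimmed clonotypes, TRBJ1-1 had the lowest share at 91.3% and TRBJ1-6 the highest at 97.5%. TRBJ1-5 was the exception at 73.3%, and its other sequence is shown further on.

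The libraries held 74021 to 134169 productive beta-chain reads, of which 20014 to 35342 used TRBJ1, and 36741 to 51904 productive clonotypes. CD8SP libraries were deeper than CD4SP libraries in reads (92648 to 134169 against 74021 to 104434), so clonotypes are counted at unequal depth. No gene expression was measured, so neither the sorted phenotype nor the loss of Chrna9 could be checked against transcripts. The invariant chain of natural killer T cells made up 5.26% to 8.49% of productive alpha-chain reads in CD4SP and 0.0495% to 0.0897% in CD8SP libraries; in CD4SP it was 5.26% to 6.51% in WT and 6.37% to 8.49% in KO, and its part in the results below was looked at only in member usage: with reads of its usual V partners TRBV13-2, TRBV29 and TRBV1 left out, 5 members passed between cell types, as with them. For the other results it was not tested.

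The members were used very unevenly. As a percentage of productive beta-chain reads, TRBJ1-1 was the most used at 8.996 ± 0.252 (SD over 6 mice, each the mean of its CD4SP and CD8SP library). TRBJ1-4 followed at 5.14 ± 0.0877, TRBJ1-2 at 4.35 ± 0.188 and TRBJ1-3 at 3.86 ± 0.129. TRBJ1-6 and TRBJ1-5 were the least used at 2.22 ± 0.0534 and 1.71 ± 0.101. The order depended on the cell type in the middle of the range. In CD4SP it ran TRBJ1-1, TRBJ1-4, TRBJ1-3, TRBJ1-2, TRBJ1-6, TRBJ1-5, and in CD8SP TRBJ1-1, TRBJ1-2, TRBJ1-4, TRBJ1-3, TRBJ1-6, TRBJ1-5. Neighbours whose libraries overlapped were TRBJ1-3 and TRBJ1-2 in CD4SP, and TRBJ1-2 and TRBJ1-4 in CD8SP. All other neighbours were separated in every library.

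**Figure D1:**
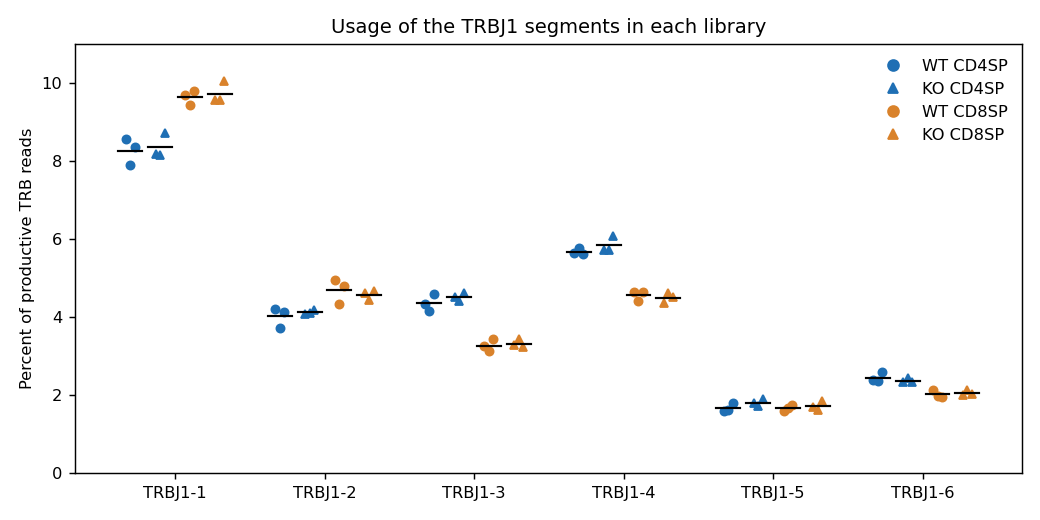
Percent of productive beta-chain reads (vertical axis) that used each TRBJ1 segment (horizontal axis) in the 12 libraries; each point is 1 library, bars are means of 3 libraries, colour gives the cell type and shape the genotype. WT and KO points overlap for every member, while CD4SP and CD8SP points of TRBJ1-1, TRBJ1-2, TRBJ1-3, TRBJ1-4 and TRBJ1-6 lie apart.

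The first question was whether the members are used differently by CD4SP and CD8SP cells. TRBJ1-1 and TRBJ1-2 were lower in CD4SP, and TRBJ1-3, TRBJ1-4 and TRBJ1-6 were higher. TRBJ1-5 did not pass the test. These calls are from edgeR's quasi-likelihood test on reads per segment with the mouse as a block, with Benjamini-Hochberg adjustment over the 35 V and J segments tested. Of those 35 segments 85.7% passed at an adjusted p under 0.05, 51.4% being higher and 34.3% lower in CD4SP, so that 5 of 6 members is close to the share among all segments. All 6 TRBJ2 segments passed as well, 4 higher and 2 lower.

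TRBJ1-1 made up between 7.88% and 8.72% of productive reads in CD4SP libraries (median 8.27%) and between 9.44% and 10.04% in CD8SP libraries (median 9.63%). The groups did not overlap. Its log2 ratio of CD4SP to CD8SP was -0.22 (SE 0.016, edgeR adjusted p = 1.05e-27). TRBJ1-2 ran from 3.72% to 4.20% in CD4SP (median 4.12%) and from 4.33% to 4.96% in CD8SP (median 4.64%). Its ratio was -0.19 (SE 0.0315, edgeR adjusted p = 3.12e-08), again without overlap.

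TRBJ1-3 showed the widest ratio of the cluster. It ran from 4.16% to 4.62% in CD4SP (median 4.46%) and from 3.12% to 3.43% in CD8SP (median 3.26%), a log2 ratio of 0.43 (SE 0.0328, edgeR adjusted p = 8.04e-26). TRBJ1-4 ran from 5.61% to 6.07% in CD4SP (median 5.71%) and from 4.35% to 4.64% in CD8SP (median 4.57%). Its log2 ratio was 0.34 (SE 0.0292, edgeR adjusted p = 1.47e-22). Every CD4SP library lay above every CD8SP library for both segments.

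TRBJ1-6 ran from 2.33% to 2.58% in CD4SP (median 2.37%) and from 1.95% to 2.13% in CD8SP (median 2.01%), with a log2 ratio of 0.24 (SE 0.0461, edgeR adjusted p = 6.92e-07). The call was lost with DESeq2 (log2 ratio 0.08, adjusted p = 0.0689). TRBJ1-5 overlapped between the cell types, at 1.59% to 1.89% in CD4SP (median 1.75%) and 1.59% to 1.84% in CD8SP (median 1.67%). Its log2 ratio was 0.04 (SE 0.0517, edgeR adjusted p = 0.504), and it turned negative and passed with TMM factors (-0.09, adjusted p = 0.0339) and with DESeq2 (-0.12, adjusted p = 0.00137). Those scalings moved the median segment by -0.13 and -0.16 on the log2 scale, and shares of 60.0%, 51.6% and 46.7% of the called segments were then higher in CD4SP under the plain, TMM and DESeq2 scalings.

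As a percentage of TRBJ1 reads alone, TRBJ1-1 was 31.1 ± 0.516 in CD4SP and 37.5 ± 0.476 in CD8SP (SD, n = 6 libraries). TRBJ1-4 was 21.6 ± 0.631 against 17.5 ± 0.331. The effective number of TRBJ1 segments, which counts how many equally used segments would give the same evenness, was 4.84 ± 0.0526 in CD4SP and 4.35 ± 0.0323 in CD8SP. It was higher in CD4SP in 6 of 6 mice (exact sign-flip permutation test, two-sided, p = 0.031, adjusted p = 0.0486 over 14 measures of the cluster). That p is the smallest that 6 mice allow. Of the 14 measures, 64.3% passed, and in 35.7% the 2 cell types did not overlap.

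**Figure D2:**
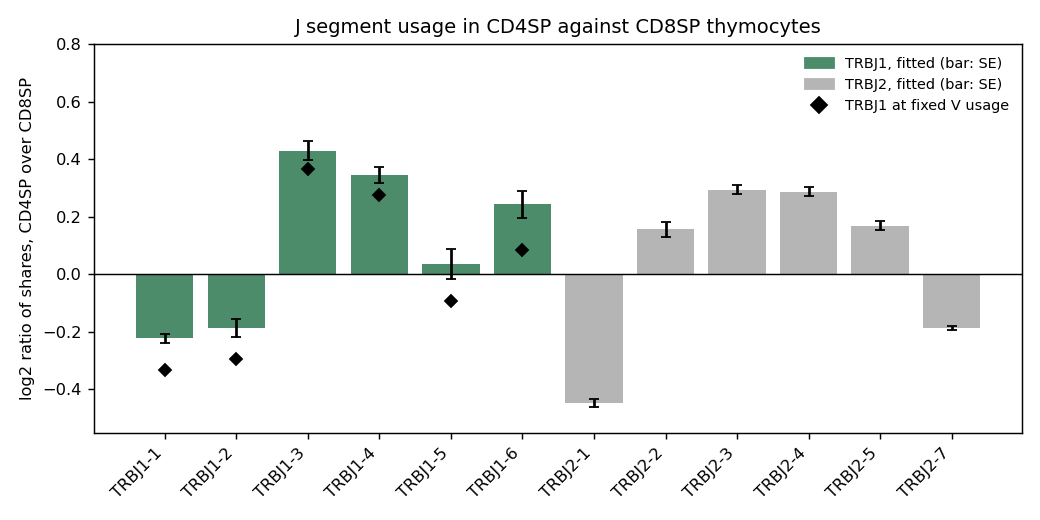
Log2 ratio of usage in CD4SP over CD8SP thymocytes (vertical axis) for the 12 J segments (horizontal axis): bars are fitted values with their SE, green for TRBJ1 and grey for TRBJ2, and diamonds give TRBJ1 members at 1 fixed V usage. TRBJ1-1 and TRBJ1-2 lie below 0 and TRBJ1-3, TRBJ1-4 and TRBJ1-6 above it in both, whereas TRBJ1-5 lies at 0.04 as a bar and at -0.09 as a diamond.

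The total of the cluster moved little, and its direction depended on what was counted. In CD4SP libraries TRBJ1 made up 26.7%, 25.5% and 27.0% of productive reads in WT replicates 1 to 3 and 26.6%, 26.5% and 27.8% in KO replicates 1 to 3. In CD8SP libraries it made up 26.2%, 24.9% and 26.3% in WT and 25.5%, 25.8% and 26.3% in KO. The ranges overlapped, and within each mouse the CD4SP library was the higher one. The difference was 0.839 ± 0.390 percentage points (SD, n = 6 mice; 6 of 6 higher, exact permutation p = 0.031, adjusted p = 0.0486).

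Counted by clonotypes, each once, TRBJ1 was instead lower in CD4SP, at 27.7 ± 0.639% against 28.2 ± 0.567%. The difference was -0.421 ± 0.329 points (6 of 6 mice lower, exact permutation adjusted p = 0.0486). TRBJ1 clonotypes held 1.83 ± 0.0721 reads each in CD4SP and 2.45 ± 0.095 in CD8SP. This is not particular to TRBJ1, since clonotypes of all productive chains also held more reads each in CD8SP. CD8SP libraries had 92648 to 134169 productive reads on 36741 to 46804 clonotypes. CD4SP libraries had 74021 to 104434 on 41277 to 51904. The total was also recomputed at 1 fixed V usage, an alternative added after the values were seen, in which the TRBJ1 share within each of 19 V segments was weighted by that V segment's mean share over the 12 libraries. It was then 25.9 ± 0.751% in CD4SP and 26.8 ± 0.487% in CD8SP, a difference of -0.971 ± 0.459 points (6 of 6 mice lower, exact permutation p = 0.031, adjusted p = 0.0365 over 7 values).

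The members were recomputed in the same way. At fixed V usage TRBJ1-1 was lower in CD4SP by -2.07 ± 0.18 points and TRBJ1-2 by -0.872 ± 0.182 points, each in 6 of 6 mice. TRBJ1-3 and TRBJ1-4 were higher by 0.978 ± 0.193 and 0.970 ± 0.300 points, also in 6 of 6 mice (exact permutation adjusted p = 0.0365 for these 4). TRBJ1-5 was lower by -0.113 ± 0.0532 points in 6 of 6 mice (exact permutation adjusted p = 0.0365). TRBJ1-6 was higher by 0.132 ± 0.158 points in 4 of 6 mice and did not pass (exact permutation p = 0.125).

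**Figure D3:**
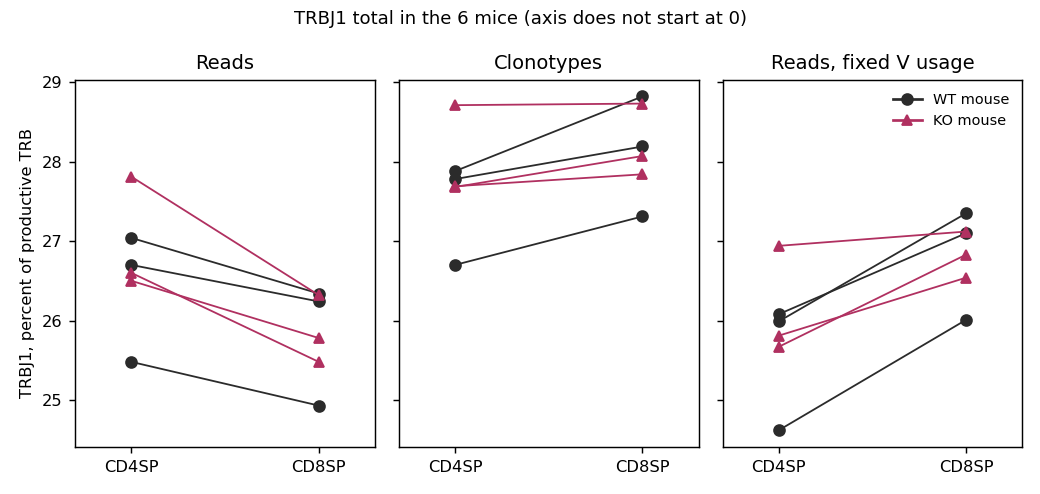
TRBJ1 as a percentage of productive beta chains (vertical axis, not starting at 0) in CD4SP and CD8SP libraries of each mouse, counted by reads, by clonotypes and by reads at fixed V usage; a line joins the libraries of 1 mouse. All 6 lines fall from CD4SP to CD8SP for reads and rise in the other panels.

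The V partners of TRBJ1 differed greatly between the cell types. The V segment supplies CDR1, CDR2 and the start of CDR3. TRBV31, which lies downstream of TRBC2 in the annotation, made up between 24.6% and 26.3% of TRBJ1 reads in CD4SP (median 25.2%) and between 6.91% and 7.65% in CD8SP (median 7.32%). TRBV13-1 was the commonest partner in CD8SP, at 14.98% to 17.1% (median 15.99%), and stood at 10.3% to 11.4% in CD4SP (median 11.1%). TRBV5 had 16.4% to 17.7% in CD4SP and 9.34% to 10.9% in CD8SP, and TRBV29 had 5.50% to 6.58% and 11.7% to 14.6%. No range of these partners overlapped between cell types. The 4 V segments moved the same way among all productive reads, TRBJ1 reads included, so these shifts are not a trait of TRBJ1 chains alone. Mean shares of all productive reads were 21.54% in CD4SP and 5.57% in CD8SP for TRBV31, and 12.11% and 14.99% for TRBV13-1. They were 17.72% and 10.35% for TRBV5, and 5.439% and 11.28% for TRBV29. The effective number of V partners was 7.91 ± 0.203 in CD4SP and 11.2 ± 0.198 in CD8SP, lower in CD4SP in 6 of 6 mice (exact permutation adjusted p = 0.0486).

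Of 249 V-J pairs tested in both J clusters, 79.9% passed between the cell types, 43.4% higher and 36.5% lower in CD4SP. Of the 122 pairs with a TRBJ1 member, 93 passed, 48 higher and 45 lower in CD4SP, and the median absolute log2 ratio was 0.68 over them and 0.69 over all pairs. A few V segments supplied the pairs with the largest ratios. TRBV31 with TRBJ1-4 made up 1.60 ± 0.0673% of productive reads in CD4SP and 0.329 ± 0.0528% in CD8SP (log2 ratio 2.29, SE 0.0657, edgeR adjusted p = 6.30e-36). All 6 TRBV31 pairs of the cluster stood among the 10 highest, the lowest of them being TRBV31 with TRBJ1-5 at a log2 ratio of 1.48. TRBV5 with TRBJ1-3 and with TRBJ1-4, TRBV13-2 with TRBJ1-3 and TRBV20 with TRBJ1-4 completed the list.

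At the other end, TRBV14 with TRBJ1-1 made up 0.127 ± 0.0169% in CD4SP and 0.613 ± 0.0464% in CD8SP (log2 ratio -2.28, SE 0.0872, edgeR adjusted p = 2.99e-30). TRBV12-1 with TRBJ1-2 followed at 0.145 ± 0.0189% and 0.674 ± 0.0181% (log2 ratio -2.22). The 10 lowest pairs used TRBV14, TRBV12-1, TRBV12-2, TRBV17 or TRBV29. TRBJ1-1 took part in 5 of them, and TRBJ1-1, TRBJ1-2, TRBJ1-3 and TRBJ1-4 between them in all.

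By member, TRBJ1-3 had 12 pairs higher and 6 lower in CD4SP of 20 tested, and TRBJ1-4 had 10 and 7 of 21. TRBJ1-1 had 7 higher and 10 lower of 21, TRBJ1-2 had 6 and 8 of 21, TRBJ1-5 had 4 and 8 of 20, and TRBJ1-6 had 9 and 6 of 19. Within single V segments, TRBJ1-1 and TRBJ1-2 each had a lower share in CD4SP in all 6 mice for 9 of 19 V segments and a higher share in all mice for 0. TRBJ1-3 was higher in all 6 mice for 7 V segments and lower in all for 0. TRBJ1-4 was higher for 7 and lower for 1. TRBJ1-5 was higher for 2 and lower for 3, and TRBJ1-6 higher for 2 and lower for 0. These counts were not made for the TRBJ2 segments, so no share over all J segments stands beside them.

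The share of TRBJ1 among the reads of a V segment varied less between cell types than between V segments. TRBV20 had the highest mean share over the 12 libraries, with 32.2 ± 0.979% in CD4SP and 35.1 ± 1.01% in CD8SP. TRBV31 followed with 31.3 ± 0.737% and 33.9 ± 1.61%, and TRBV26 with 32.3 ± 1.38% and 30.9 ± 2.14%. TRBV17 had the lowest, 15.4 ± 1.37% and 12.8 ± 0.652%. TRBV31 made up 21.5% of all productive reads in CD4SP and 5.57% in CD8SP.

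Of 22 V segments tested, 18.2% passed, 4.55% higher and 13.6% lower in CD4SP. TRBV13-1 was lower (24.2 ± 0.951% against 27.5 ± 0.786%, log2 ratio -0.19, SE 0.0181, edgeR adjusted p = 1.71e-10). TRBV12-1 and TRBV20 were lower as well, with log2 ratios of -0.18 and -0.12. TRBV20 lost its call without KO replicate 3 (edgeR adjusted p = 0.0806) and without WT replicate 3 (adjusted p = 0.0752). TRBV17 alone was higher among those that passed, with a log2 ratio of 0.26 (edgeR adjusted p = 0.00127), and that call was lost when clonotypes were counted once (0.05, adjusted p = 0.568) and without clonotypes of 1 read (0.19, adjusted p = 0.145). TRBV31 had a log2 ratio of -0.11 that missed the threshold with the mouse block (edgeR adjusted p = 0.129) and passed in several alternatives: without the block (adjusted p = 0.0016), and with the block kept but no filter on low counts (adjusted p = 0.00473), clonotypes counted once (-0.15, adjusted p = 0.0056), no clonotypes of 1 read (adjusted p = 0.00206) or without WT replicate 1, 2 or 3 (adjusted p = 0.0359, 0.0492 and 1.63e-05).

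**Figure D4:**
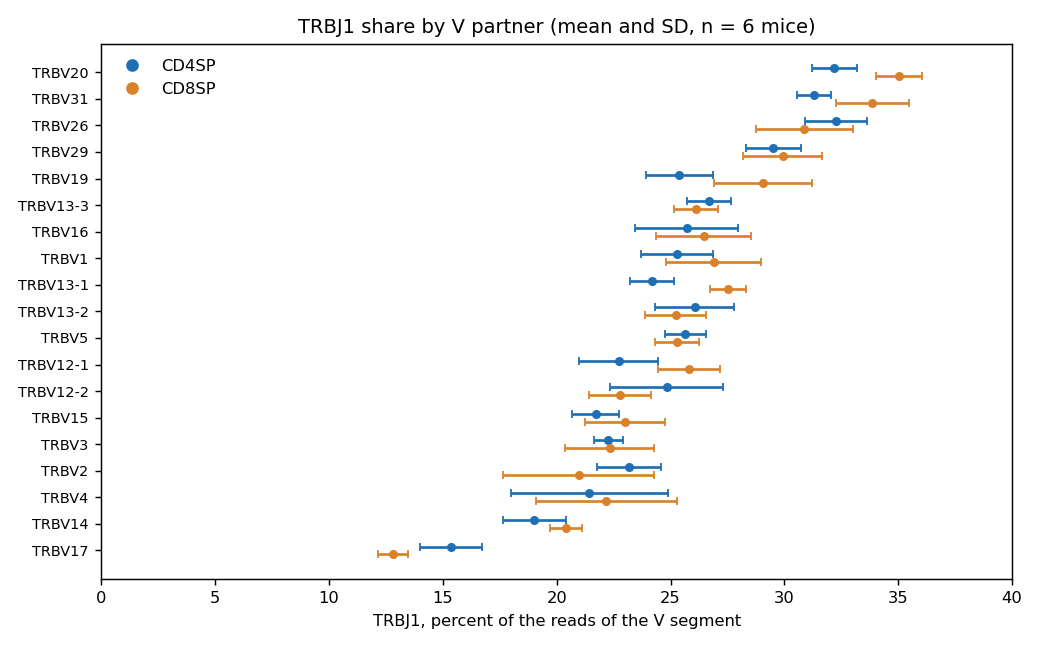
TRBJ1 as a percentage of the reads of each V segment (horizontal axis) for the 19 V segments of at least 0.5% of productive reads, as mean and SD over 6 mice in CD4SP (blue) and CD8SP (orange). The means of TRBV20, TRBV26 and TRBV31 lie above 30% in both cell types and TRBV17 is lowest in both.

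CDR3 length separated the members. Averaged over mice, the order from short to long was TRBJ1-1, TRBJ1-2, TRBJ1-5, TRBJ1-3, TRBJ1-4, TRBJ1-6, with mean lengths of 13.2, 13.5, 13.7, 14.1, 14.2 and 14.2 residues. TRBJ1-2 exceeded TRBJ1-1 by 0.295 ± 0.0463 residues, TRBJ1-5 exceeded TRBJ1-2 by 0.229 ± 0.0615, and TRBJ1-3 exceeded TRBJ1-5 by 0.419 ± 0.0556, each in 6 of 6 mice (exact permutation adjusted p = 0.0437). TRBJ1-4 over TRBJ1-3 and TRBJ1-6 over TRBJ1-4 differed by 0.028 ± 0.0339 and 0.0268 ± 0.0411 and did not pass.

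In 5 of the 6 members the CDR3 was shorter in CD4SP than in CD8SP in every mouse, as it was in 75.0% of all 12 J segments. The differences were -0.143 ± 0.0429 residues for TRBJ1-2, -0.102 ± 0.0799 for TRBJ1-3 and -0.207 ± 0.038 for TRBJ1-4. They were -0.194 ± 0.104 for TRBJ1-5 and -0.181 ± 0.1 for TRBJ1-6 (exact permutation adjusted p = 0.0437 for each). TRBJ1-1 did not pass, at 0.0171 ± 0.0289 residues with 4 of 6 mice longer in CD4SP. The mean over the whole cluster differed by only -0.022 ± 0.0134 residues (13.7 in both cell types when rounded, 6 of 6 mice lower). Among the TRBJ2 segments, TRBJ2-2, TRBJ2-3, TRBJ2-4 and TRBJ2-5 were shorter in CD4SP in every mouse, and TRBJ2-7 alone, 8.33% of the J segments, was longer in every mouse, by 0.158 ± 0.034 residues (exact permutation adjusted p = 0.0375 over the 12 J segments, of which 83.3% passed). Beside this, TRBJ1-1, the member with the shortest CDR3, held the larger share in CD8SP given above.

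The spread of lengths was narrower in CD4SP, with an SD within a library of 1.31 ± 0.0158 residues against 1.39 ± 0.00954 (6 of 6 mice, exact permutation adjusted p = 0.0486). Lengths of 13 residues made up 26.0 ± 0.693% of TRBJ1 reads in CD4SP and 20.7 ± 0.399% in CD8SP. Both tails were smaller in CD4SP. CDR3s of at most 11 residues made up 5.09 ± 0.232% against 6.55 ± 0.261%, and those of at least 16 residues 6.21 ± 0.275% against 7.41 ± 0.298%, with no overlap of the libraries in either. TRBJ2 reads went the same way, so this is not particular to TRBJ1. In them, lengths of 13 residues made up 22.6% in CD4SP and 18.8% in CD8SP. Lengths of 11 residues made up 4.45% and 5.59%, and those of 16 residues 7.57% and 9.10%. TRBJ2 chains were longer than TRBJ1 chains, by 0.0999 ± 0.0109 residues within mice (6 of 6, exact permutation adjusted p = 0.0437).

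**Figure D5:**
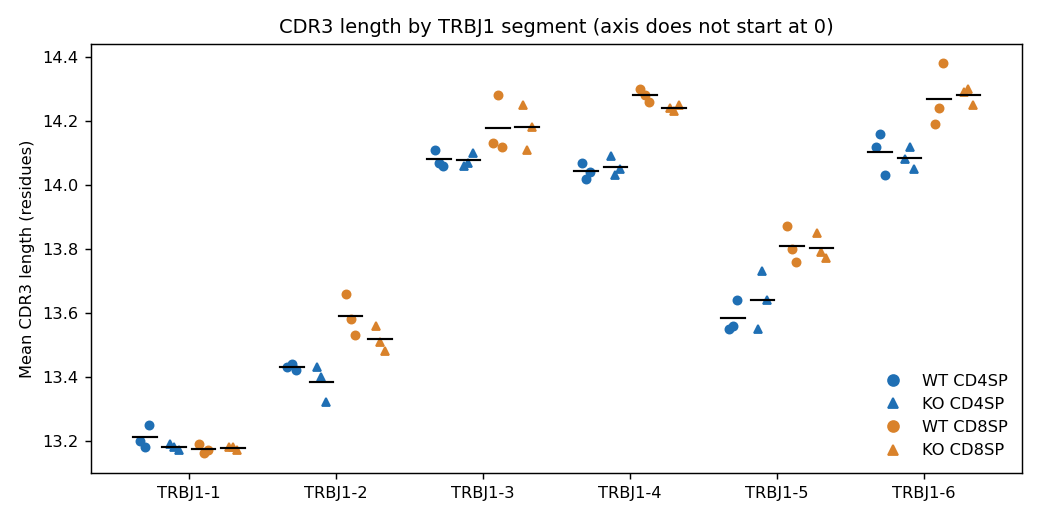
Mean CDR3 length in residues (vertical axis, not starting at 0) of each TRBJ1 segment (horizontal axis) in the 12 libraries; points are libraries and bars are means of 3. CD4SP points (blue) lie below CD8SP points (orange) for TRBJ1-2, TRBJ1-4, TRBJ1-5 and TRBJ1-6, and TRBJ1-1 lies near 13.2 in all groups.

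The length of a CDR3 is set by the germline bases kept and the bases between them. TRBJ1-3 kept its J end best: 56.3 ± 2.12% of its reads had lost no base there, and the mean loss was 1.303 ± 0.0629 nucleotides (SD, n = 12 libraries). TRBJ1-2 followed with 40.6 ± 1.57% and 1.64 ± 0.0602 nucleotides. TRBJ1-6, the longest segment, was trimmed most, with 19.6 ± 1.59% intact and 4.28 ± 0.158 nucleotides lost. TRBJ1-1, TRBJ1-4 and TRBJ1-5 lost 2.67, 2.92 and 2.89 nucleotides on average. These values come from alignments, in which an added base that happens to match the germline counts as kept.

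The stretch between the V and J ends was shorter in TRBJ1 chains, at 7.89 ± 0.053 nucleotides, than in TRBJ2 chains, at 9.23 ± 0.0727, and the libraries of the clusters did not overlap. D hits differed as well. TRBD1 was assigned to 58.5 ± 1.04% of TRBJ1 reads and TRBD2 to 5.12 ± 0.277%, with no D hit in the rest, whereas TRBD2 was assigned to 40.2 ± 0.939% of TRBJ2 reads. TRBD2 lies downstream of TRBJ1 on the chromosome, and the short D remnants make such hits uncertain. Constant-region hits were uninformative, since 0.0787% of TRBJ1 clonotypes were called TRBC1.

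The cluster was also compared between productive and out-of-frame chains, the latter being transcripts that cannot have been selected for their protein. In out-of-frame reads, of which libraries held 1221 to 2272, TRBJ1 made up 23.6 ± 2.10% (SD, n = 12 libraries). Averaged per mouse, the productive share was higher by 2.68 ± 1.57 points in 6 of 6 mice (exact permutation adjusted p = 0.0469). It was higher in 6 of 6 mice in CD4SP and in 4 of 6 in CD8SP, where it did not pass (exact permutation p = 0.125). With clonotypes counted once the difference was 4.60 points averaged per mouse, and the 4.58 points in CD8SP then passed (exact permutation adjusted p = 0.031). Without clonotypes of 1 read the difference was 1.19 points and no longer passed (exact permutation adjusted p = 0.422). TRBJ1-1 made up 6.28 ± 0.557% of out-of-frame and 8.996 ± 0.762% of productive reads, and TRBJ1-3 3.09 ± 0.560% and 3.86 ± 0.613%. TRBJ1-2 stood at 3.99 ± 0.671% and 4.35 ± 0.352%. The other members had the lower mean in productive reads. TRBJ1-4 stood at 5.39 ± 0.728% and 5.14 ± 0.653%, TRBJ1-5 at 1.91 ± 0.488% and 1.71 ± 0.103%, and TRBJ1-6 at 2.94 ± 0.497% and 2.22 ± 0.210%. The members thus did not all go the way of the cluster, and their differences were not tested.

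The study's main question concerned Chrna9. No member passed between KO and WT in either cell type: 0 of 6 in CD4SP, where 2.86% of the 35 segments passed, and 0 of 6 in CD8SP, where 0.0% passed (edgeR's quasi-likelihood test with the replicate number as a block). At an unadjusted p under 0.05 the counts of members were also 0 and 0, and DESeq2 passed 0 in both, with 1 and 0 members at an unadjusted p under 0.05. The segment that passed in CD4SP was TRBJ2-7, at a log2 ratio of -0.05 (adjusted p = 0.0278), and it did not pass with TMM factors (adjusted p = 0.466), with DESeq2 (adjusted p = 0.985) or without the block (adjusted p = 0.218).

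In CD4SP the log2 ratios of KO to WT ran from -0.04 (SE 0.0772) for TRBJ1-6 to 0.11 (SE 0.0852) for TRBJ1-5. TRBJ1-5 made up 1.59%, 1.60% and 1.80% of reads in WT and 1.79%, 1.71% and 1.89% in KO, and the groups overlapped. In CD8SP the ratios ran from -0.04 (SE 0.049) for TRBJ1-2 to 0.04 (SE 0.0829) for TRBJ1-5. TRBJ1-1, with 8.57%, 7.88% and 8.35% in WT CD4SP and 8.18%, 8.15% and 8.72% in KO CD4SP, had a ratio of 0.01 (SE 0.0342). The difference of these genotype effects between CD4SP and CD8SP passed for 0 of 6 members, as for 0.0% of the 35 segments, with 0 members at an unadjusted p under 0.05 by edgeR and by DESeq2.

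The total differed by 0.562 ± 0.590 points between KO and WT in CD4SP, higher in KO in 2 of 3 pairs, and by 0.0218 ± 0.800 in CD8SP, higher in 1 of 3 (exact permutation p = 0.5 and 1.0). With 3 pairs the smallest p of that sign-flip test is 0.25, so that none of the 14 measures could pass it. The methods' t-test put 0 of the 14 measures under 0.05 in CD4SP and 1 in CD8SP, and 0 in both after Benjamini-Hochberg adjustment. The 1 was the mean CDR3 length, lower in KO by -0.0173 ± 0.00428 residues in 3 of 3 pairs in CD8SP. In CD8SP 7.14% of the measures did not overlap between genotypes, in CD4SP 0.0%. The measure was the number of nucleotides between the V and J ends in CD8SP, at 7.87 ± 0.0434 in KO and 7.95 ± 0.0372 in WT. It is named here only because its groups did not overlap. Any measure without overlap between 3 and 3 libraries gets p = 0.1 in an exact permutation of the genotype labels, as here. The number was lower in KO in 3 of 3 pairs in CD8SP, by -0.0772 ± 0.051 nucleotides. In CD4SP, where the groups overlapped, it was lower in 3 of 3 pairs by -0.0562 ± 0.0259. Of V-J pairs 0.0% of 249 passed in either cell type. At an unadjusted p under 0.05, 3 of the 122 TRBJ1 pairs stood in CD4SP and 3 in CD8SP by edgeR, and 1 and 6 by DESeq2. The smallest p in CD4SP belonged to TRBV14 with TRBJ1-5 (log2 ratio -0.69, edgeR adjusted p = 0.985) and in CD8SP to TRBV26 with TRBJ1-2 (-0.42, adjusted p = 0.942). TRBJ1 within V segments passed for 0.0% of 22 in either cell type, with 1 and 2 at an unadjusted p under 0.05 by edgeR and 1 and 1 by limma. Without KO replicate 3, TRBV30 passed in CD8SP (log2 ratio -0.50, edgeR adjusted p = 0.0395).

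TRBJ1-5 carried a base difference between mice in framework 4. Positions are counted from 1 at the first base of the segment, and C40T lies at chr6:41535123 on the coordinates above. The sequences are shown because they account for the low share of the modal TRBJ1-5 sequence, with the differing base in capitals.

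TRBJ1-5, common base: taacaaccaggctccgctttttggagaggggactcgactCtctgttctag
TRBJ1-5, other base: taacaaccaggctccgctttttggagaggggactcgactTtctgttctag

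The codon is read as leucine with either base. In WT mouse 1 the other base made up 43.7% of TRBJ1-5 reads in CD4SP (95% exact binomial interval 41.1% to 46.4%, for counting error only) and 44.9% in CD8SP. In KO mouse 1 it made up 49.5% and 45.8%, and in KO mouse 2 44.3% and 45.5%. In WT mouse 3 it stood in 1 of 1333 CD4SP reads and 0 of 2334 CD8SP reads. WT mouse 2 and KO mouse 3 had 0 of 1392 to 2192 reads, with exact upper limits of 0.168% to 0.265%. Both libraries of a mouse thus gave like values. Of the 28 framework 4 positions of each of the 12 J segments, this was the only position where another base reached 10% in a library. TRBJ1-5 usage in CD4SP was 1.59%, 1.79% and 1.71% in the mice with both bases and 1.60%, 1.80% and 1.89% in the others. In CD8SP it was 1.59%, 1.68% and 1.62% against 1.65%, 1.74% and 1.84%. The mice overlapped in both cell types, and the difference was not tested.

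A fixed rule of likeness took the root mean square difference of the centred log2 share from that of the TRBJ1 total over the 12 libraries. Outside the cluster it was smallest for TRBV15, TRBJ2-5 and TRBJ2-2, at 0.071, 0.0794 and 0.0801. The total itself varied little (26.3 ± 0.774%, SD, n = 12 libraries), so any segment of steady share scores low. A small value therefore does not show that a segment rose and fell with the total.

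Most TRBJ1 chains were seen in a single library. Of 118015 distinct TRBJ1 chains by V, J and translated CDR3, 86.43% were seen in 1 library and 6 in all 12. No such share was counted for TRBJ2 chains, so it is not a trait of TRBJ1. TRBJ1 clonotypes held only 1.83 reads each in CD4SP and 2.45 in CD8SP libraries. How far sparse sampling set this share was not tested. The 5 chains with the highest mean share among those in all 12 are shown by their commonest nucleotide sequence. They are among the few TRBJ1 chains that every library held. Capitals mark the bases that the deposited J alignment covers.

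TRBV13-1 with TRBJ1-1, first: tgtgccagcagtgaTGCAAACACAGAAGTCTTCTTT
TRBV5 with TRBJ1-1, first: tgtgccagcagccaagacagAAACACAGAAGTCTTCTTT
TRBV13-1 with TRBJ1-1, second: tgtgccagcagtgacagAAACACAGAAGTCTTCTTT
TRBV13-3 with TRBJ1-3: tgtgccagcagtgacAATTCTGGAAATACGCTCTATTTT
TRBV5 with TRBJ1-1, second: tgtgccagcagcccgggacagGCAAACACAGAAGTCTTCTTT

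Of these 5, 4 used TRBJ1-1, the most used member. The J alignment of the first TRBV13-1 chain, the TRBV13-3 chain and the second TRBV5 chain covers 22, 24 and 21 bases, more than the 20, 22 and 20 that the segments printed above bring, so the capitals there start before the segment's first base. The read counts below are pooled over libraries of unequal depth and were not tested between cell types. The first TRBV13-1 chain was read 99 times over 4 nucleotide variants, 17 times in CD4SP and 82 times in CD8SP libraries. The CD8SP reads were uneven, at 5, 17 and 36 in WT and 15, 3 and 6 in KO replicates 1 to 3. The V and J matches of the commonest sequence of this chain overlap by 4 bases. The first TRBV5 chain was read 77 times over 7 variants, 51 in CD4SP and 26 in CD8SP, with 3 bases between the matches. The second TRBV13-1 chain was read 70 times over 9 variants, 15 in CD4SP and 55 in CD8SP. The TRBV13-3 chain was read 63 times, 29 in CD4SP and 34 in CD8SP, with 1 base between the matches. The second TRBV5 chain was read 67 times, 17 and 50, with 8 bases between.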

How the data were processed

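Receptor RNA libraries were made with a SMARTer kit and sequenced on a MiSeq, per the labels' protocols; MiXCR and VDJtools are named in the series' design text, without versions. The deposited tables list 1 clonotype per row with its read count and read fraction, per the file headers; only counts were used. They are reads, not molecules, so intervals cover counting error only. Rows of 1 library with equal V, J and CDR3 nucleotides were joined (572021 productive rows to 541047 clonotypes). Best hits were used without allele. The members and lists were chosen with earlier results of these data known.

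Segments, V-J pairs and TRBJ1 within V were tested with edgeR 4.0.16 (quasi-likelihood, library size as productive reads), adjusted by Benjamini-Hochberg at 0.05; DESeq2 1.42.0 and limma 3.58.1 were alternatives. Single values were tested by exact two-sided sign-flip permutation over 3 pairs or 6 mice (scipy 1.17.1). Code was tested on simulated data. Named pairs were the 10 largest ratios per direction past the threshold with a mean share of at least 0.1%, or the 5 smallest p. Libraries of 1 genotype and number were taken as 1 mouse: their segment deviations correlated at 0.206 to 0.642 and they shared 3.35% to 3.81% of the productive clonotypes of the smaller library, TRBJ2 included, against at most 3.23% for any other libraries. KO and WT of 1 number correlated at -0.53 to 0.513. Clonotypes were not thinned to equal depth.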

Additional observations from a re-analysis of the deposited data

How the results depend on the processing

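Where a value passed neither in the main analysis nor in an alternative, its sign and its counts of pairs or mice are description only. Counted by clonotypes once, the CD4SP minus CD8SP difference of the TRBJ1 total turned to -0.421 points, and at fixed V usage, added after the values were seen, to -0.971; without clonotypes of 1 read it was 0.699 (exact permutation adjusted p = 0.0547). Without clonotypes of 1 read 0 of the 14 measures passed between cell types instead of 9. The effective number of V partners then differed by -3.94 and that of TRBJ1 segments by 0.533 (exact permutation adjusted p = 0.0547 for each). The smallest p that 6 mice allow gives that adjusted value when fewer measures reach it. A call lost at that value does not by itself show a weaker difference. Among those calls, only the total (0.839 in the main analysis) and reads per TRBJ1 clonotype (-0.502 against -0.617) became smaller. The TRBJ1 percentage of clonotypes no longer reached the smallest p and differed by -0.371 points (exact permutation adjusted p = 0.292). The productive minus out-of-frame difference was 1.19 points without clonotypes of 1 read. With clonotypes once it was 4.60, and that in CD8SP, 4.58, passed. Leaving out 1 mouse, the total differed by 0.709 to 0.914 points, the productive difference by 2.26 to 3.08 points, 0 of the measures passed and 0 members passed for CDR3 length, whichever mouse was left out; 5 mice cannot reach the threshold, so this says nothing about stability. Counted by clonotypes once, TRBJ1 within V passed between cell types for 7 V segments, all lower in CD4SP, instead of 4; leaving out 1 mouse it passed for 3 to 6. Within V in CD8SP, KO against WT, 0 to 1 V segments passed; the 1 stood without KO replicate 3. The member count between cell types was 5 or 6 in all alternatives, and that of TRBJ1 pairs 83 to 94.

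The series' design text names pairs of mice. KO and WT libraries of 1 number correlated at -0.53 to 0.513, which cannot show whether the number pairs them. Without the replicate block the counts of members that passed were 0, 0 and 5 in KO against WT (CD4SP, CD8SP) and CD4SP against CD8SP, and those of TRBJ1 pairs 0, 0 and 92. Within V between cell types the count was 5 without the block and 4 with it. Reads per clonotype has no value with clonotypes counted once, where it is 1 by construction. Read depth differed between cell types and clonotype counts were not thinned.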
